A study of Mustela putorius furo with 20 samples.

Results

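The comparison described here is the change with age in the outer subventricular zone (oSVZ) below the suprasylvian sulcus (SSS) of the ferret, *Mustela putorius furo*, between postnatal day 5 (P5) and postnatal day 15 (P15). It contrasts 10 of the 20 RNA-Seq libraries of the series, 5 labelled SSS at P5 and 5 labelled SSS at P15. These were chosen by their age and region labels alone. Each library was made from the RNA of 1 animal, laser captured from the oSVZ and pooled across consecutive coronal sections, and the animals at P5 and P15 were different. The other 10 libraries came from the oSVZ below the coronal gyrus (CG) of the same 10 animals. They entered the same fit and shared in its filter, scaling and estimate of the spread between libraries. No genotype, strain or treatment is given in the labels of any group, so age was the only labelled difference between the SSS groups. The SSS libraries held 2785162 to 4277326 reads assigned to genes at P5 and 2488477 to 3542289 at P15, a difference that an exact two-sided permutation test did not separate (p = 0.46, n = 5 and 5, adjusted p = 0.46 over 4 library measures).

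The oSVZ is a germinal layer of the developing cortex that is enlarged in folded brains such as that of the ferret. Its outer, or basal, radial glia keep a fibre to the pial surface and divide to give intermediate progenitors and neurons, which migrate along radial fibres to the cortical plate. Radial glia later give rise to astrocytes and oligodendrocyte precursors, while interneurons, microglia and blood vessels enter the layer from elsewhere. Age comparisons in this layer therefore follow both the genes of resident progenitors and the genes of cells that are made there or pass through.

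Of 12669 genes with enough reads to test, 1856 (14.6%) were called at a false discovery rate (FDR) under 0.05, 1037 (8.19%) higher and 819 (6.46%) lower at P15, by edgeR's quasi-likelihood test with Benjamini-Hochberg adjustment. The genes that rose did so by more than the genes that fell. The median log2 fold change was 1.67 among genes called higher and -0.98 among genes called lower, and 416 genes rose while 100 fell by at least 2 on the log2 scale. Across all genes tested the median was -0.01 and the 5th to 95th percentiles were -1.28 and 2.03. The median absolute log2 fold change was 0.52, and 3456 genes had an unadjusted p under 0.05 in the same edgeR test. The 5 values at P5 and the 5 at P15 did not overlap for 1260 genes (9.95%), 699 of them higher (5.52%) and 561 lower (4.43%). With the genes split into 4 equal bins by level, in the lowest bin, 158 were called higher and 39 lower, with a smallest called change of 1.91 on the log2 scale. In the highest bin, 378 were called higher and 517 lower. For 22 of the genes called higher, no read was found in any P5 library, against 2 of the genes called lower with no read at P15.

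**Figure D1:**
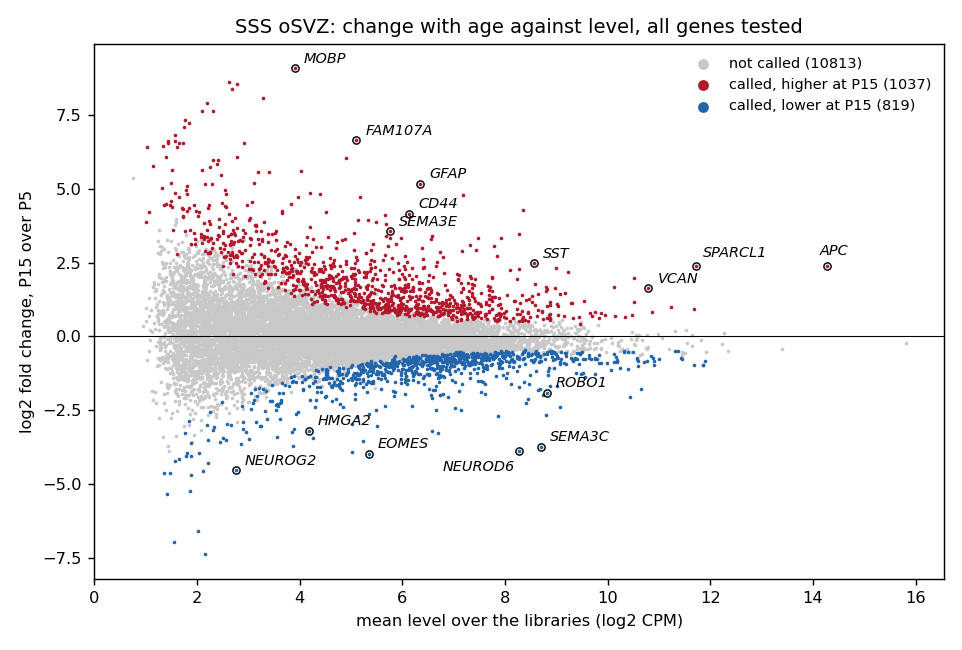
Each point is 1 of the 12669 genes tested, with its mean level on the x axis (log2 counts per 1000000 assigned reads, CPM) and its log2 fold change (P15 over P5) on the y axis. Red and blue mark the 1037 genes called higher and the 819 called lower, and circled genes are named in the text. The called genes reach further above 0 than below it, and *APC* and *SPARCL1* stand at the high-level end of those that rose.

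P15 replicate 4 stood apart from the other SSS libraries in complexity. It had reads in 12658 genes, against 14688 to 16781 in the other P15 libraries and 13725 to 15333 at P5, and 1371 of the tested genes had no read in it. In 1105 of the tested genes it was the only P15 library at 0, against 5 to 161 genes for each of the others. Without it 1840 genes were called, 1545 of them shared with the full set (866 higher and 679 lower), and no called gene changed direction. The 311 lost calls included genes whose P15 level rested on this library. *PEAR1*, a receptor of platelets and endothelial cells, measured 15.9, 1.33, 2.18, 109.8 and 2.37 CPM in P15 replicates 1 to 5, and its log2 fold change went from 5.21 (FDR 0.00168) to 2.97 (FDR 0.063) without replicate 4. *MATN3*, a cartilage matrix protein, went from 3.20 to 0.86, *GPATCH3* from 4.01 to 1.23 and *RBPMS2*, an RNA-binding protein, from 3.77 to 0.18, and none of these calls held without it. The call of *RBPMS2* was also lost without P5 replicates 2 or 3. The number of genes with a read, set to equal depth, did not differ between the ages with all libraries (14224 at P5 and 15067 at P15, exact permutation p = 0.286). It was 1445 genes higher at P15 without replicate 4 (exact permutation p = 0.0317, n = 5 and 4, adjusted p = 0.0794 over 4 measures).

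**Figure D2:**
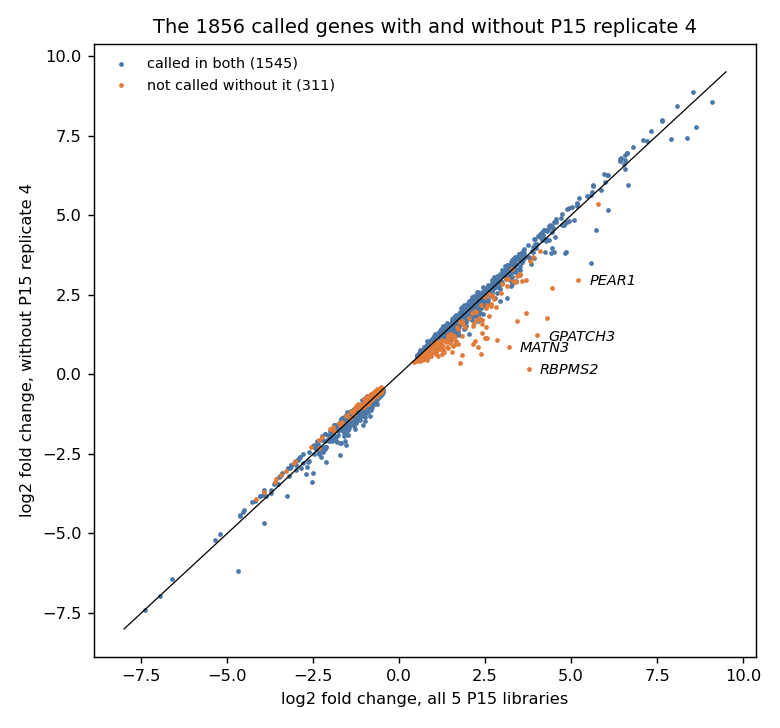
Each point is 1 of the 1856 called genes, with the log2 fold change from all 5 P15 libraries on the x axis and the value without P15 replicate 4 on the y axis; the line marks equality. Blue points (1545) kept their call and orange points (311) lost it, and the named genes fall furthest below the line.

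The layer named in the labels was checked against marker genes, as sums of CPM over the members with a symbol in the table, tested or not. Radial glia markers were abundant at both ages and their sums overlapped, at 8682 to 11573 CPM at P5 and 8796 to 11752 at P15. The highest-level members moved in opposite directions, *FABP7* from a mean of 4025 to 2046 CPM and *PTPRZ1* from 2266 to 4315 CPM. The overlap of the sums therefore does not show that the members were stable. Markers of outer radial glia summed to 482 to 751 CPM at P5 and 1072 to 1157 at P15, without overlap. The largest rises in mean were of *LIFR* (93.4 to 300 CPM), *IL6ST* (91.3 to 226 CPM) and *FAM107A* (0.853 to 82.3 CPM). Of the 13 members tested, 11 had a positive log2 fold change and 2, *MOXD1* and *PALMD*, a negative one. The marker *HOPX* had no symbol in the table, so the sum rests on few members. Excitatory neuron markers were present but lower at P15, at 1812 to 2889 and then 1091 to 1521 CPM. The sums rose without overlap for astrocytes (1821 to 3032, then 7590 to 12111 CPM), oligodendrocyte precursors (510.2 to 1036, then 2254 to 3511) and microglia (181 to 281, then 523 to 767). Most of the astrocyte sum at P15 came from *SPARCL1* (mean 5343 CPM) and *CST3* (mean 1576 CPM). Choroid plexus tissue was nearly absent, with 1 of 8 markers testable and sums of at most 70.9 CPM. In whole-tissue RNA of this kind, fewer cells of a type and less RNA per cell cannot be told apart.

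Among genes of newborn excitatory neurons and of their progenitors, most of those called were lower at P15. Of 19 excitatory neuron genes tested, 10 fell and 1 rose (median log2 fold change -1.88), and of 8 intermediate progenitor genes, 3 fell and none rose (median -1.70), with 2 called lower without P5 replicate 1. *NEUROD6*, a helix-loop-helix transcription factor of postmitotic pyramidal neurons, measured 464, 724, 565, 734 and 762 CPM in the 5 P5 libraries and 44.2, 41.9, 47.0, 35.8 and 52.0 CPM at P15. Even the lowest P5 value, that of replicate 1, was 8.91-fold above the highest P15 value. Its log2 fold change was -3.87 (standard error, SE, 0.24, FDR 4.86e-13). *EOMES* (TBR2), the defining transcription factor of intermediate progenitors, measured 113, 38.3, 69.6, 18.2 and 49.6 CPM at P5 and 2.31, 1.99, 2.73, 1.36 and 9.80 CPM at P15, a log2 fold change of -3.96 (SE 0.46, FDR 2.15e-07). The *EOMES* groups did not overlap, although P5 replicate 1 was the highest and P15 replicate 5 lay above its group. *NEUROG2*, the proneural factor upstream of *EOMES* in the mouse, fell with it (-4.52, FDR 0.00103). *INSM1*, a zinc-finger factor of basal progenitors, fell by 4.20 on the log2 scale (FDR 0.01), but 1 library carried much of its P5 level, and the call was lost without P5 replicate 1 (FDR 0.0618).

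The deep-layer factor *TBR1* (-2.69), the upper-layer factors *CUX2* (-1.93) and *POU3F2* (-2.15), and the vesicular glutamate transporters *SLC17A6* (-3.53) and *SLC17A7* (-2.81) also fell, with FDR of 0.00556 or less. *UNC5D*, a netrin receptor of multipolar migrating neurons in the mouse, fell by 3.02 on the log2 scale (FDR 0.000175). The exception was *MEF2C*, a transcription factor of maturing neurons, which rose from 518 ± 72.3 to 790.0 ± 101 CPM (mean ± SD, n = 5 libraries at each age here and below; log2 fold change 0.61, FDR 0.00712). Among the largest falls by size were also *ADAMTS18*, a secreted metalloprotease (-3.92, FDR 4.39e-05), and *NXPH4*, a neurexin ligand (-3.47, FDR 0.0125).

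**Figure D3:**
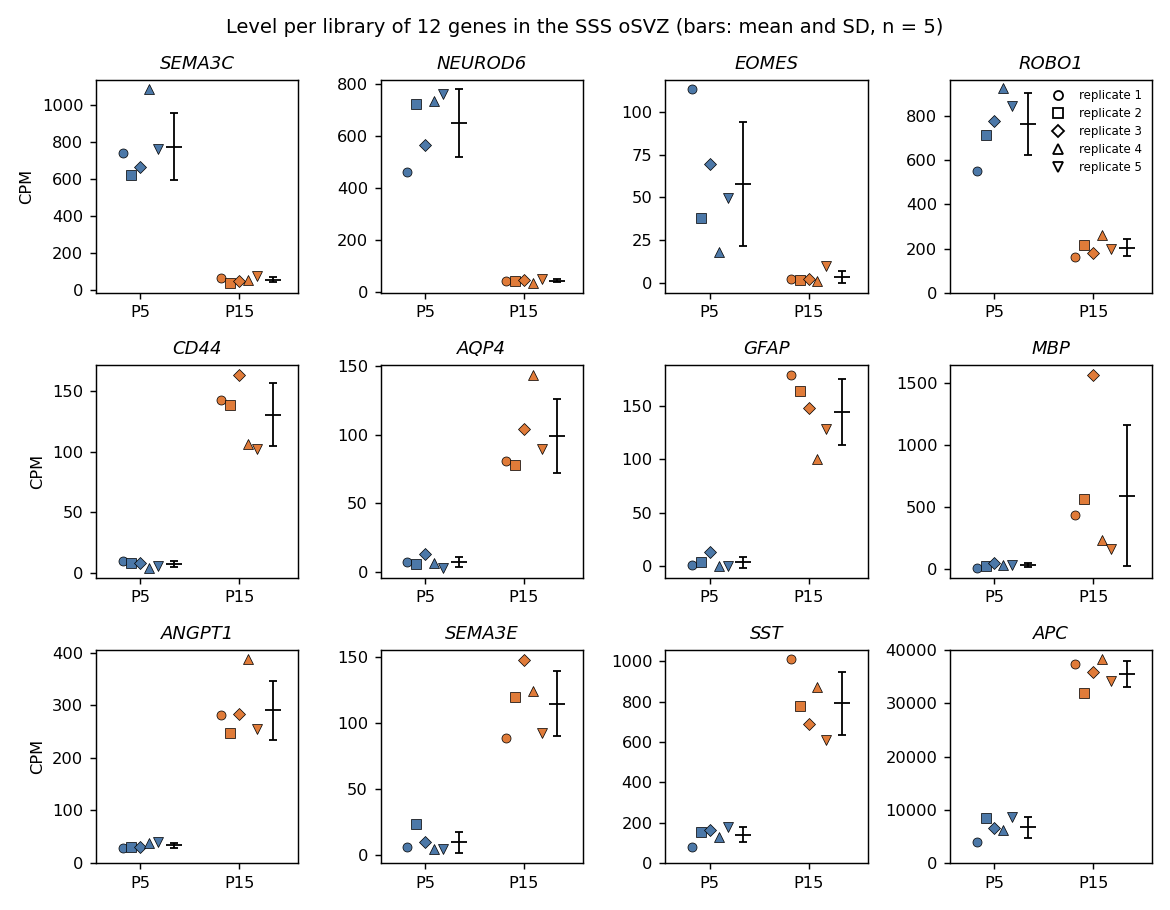
The level of 12 genes in each of the 10 SSS libraries (CPM, linear scale, 1 marker shape per replicate number), with the mean and SD of the 5 libraries beside them. *SEMA3C*, *NEUROD6*, *EOMES* and *ROBO1* are lower in every P15 library than in any P5 library and the other 8 genes are higher, with *MBP* spread most widely at P15 (163 to 1567 CPM).

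Radial glia genes did not move in 1 direction. Of 17 tested, 6 rose and 2 fell (median 0.48). The highest-level member, *FABP7*, a brain fatty acid binding protein, measured 4371, 4305, 4173, 3278 and 3999 CPM at P5 and 2598, 891, 1292, 2598 and 2852 CPM at P15. All P15 values were below the P5 values, with P15 replicates 2 and 3 the lowest (log2 fold change -0.98, SE 0.26, FDR 0.00888). *PTPRZ1*, a receptor phosphatase of radial glia and oligodendrocyte precursors, rose from 2266 ± 190.2 to 4315 ± 249 CPM (log2 fold change 0.93, FDR 6.03e-06). The glutamate transporter *SLC1A3* (0.70), the receptor regulator *LRIG1* (0.93) and the serine synthesis enzyme *PHGDH* (1.15) rose as well, with FDR of 0.00458 or less, and these are genes that astrocytes also use. *CDH2* (N-cadherin) fell by 0.49 on the log2 scale (FDR 0.0269), a call lost without P5 replicate 5 (FDR 0.0805) or P15 replicate 2 (FDR 0.0765), and without either of these libraries 1 radial glia gene was called lower.

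Of 13 outer radial glia genes, 5 rose and 1 fell (median 1.03). *LIFR*, the receptor of leukaemia inhibitory factor, measured 57.9, 99.0, 116, 91.2 and 103 CPM at P5 and 316, 307, 276, 284 and 318 CPM at P15, without overlap (log2 fold change 1.68, SE 0.18, FDR 6.41e-08). Its co-receptor *IL6ST* (1.30, FDR 4.55e-05) and the transcription factor *STAT3* downstream of both (1.31, FDR 0.00101) also rose. *FAM107A*, an actin-associated protein and a marker of outer radial glia in human cortex, rose by 6.64 (FDR 5.1e-07) from under 3 CPM in every P5 library to 56.3, 35.2, 87.7, 210.5 and 22.0 CPM, highest in P15 replicate 4, and the value without that library was 5.93. In contrast, *TNC*, a matrix glycoprotein of the same list, was at 187 ± 40.8 and 207 ± 34.1 CPM (0.15, FDR 0.673). The monooxygenase-like gene *MOXD1* was called lower (-0.77, FDR 0.0323), a call that was lost when any of 7 libraries was left out (FDR 0.059 to 0.101 without P5 replicates 1, 3 or 5 or P15 replicates 1 to 4).

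Few cell cycle genes passed the test, and those that did were lower at P15. Of 30 mitosis genes tested 4 fell, of 26 DNA replication genes 3 fell, none of either list rose, and the medians were -0.45 and -0.35. The shares called, 13.3% and 11.5%, were near the 14.6% of all genes tested, of which 6.46% were called lower. The kinesin *KIF20B* fell from 316 ± 70.5 to 159 ± 32.9 CPM (-0.99, FDR 0.000281) and the spindle checkpoint kinase *TTK* by 1.14 on the log2 scale (FDR 0.00533). The replication factor C subunits *RFC3* (-1.43) and *RFC4* (-0.89) also fell, with FDR of 0.00439 or less. P5 replicate 1 was highest for several of these genes. *AURKB*, the kinase of the chromosomal passenger complex, measured 82.0, 21.7, 17.2, 5.09 and 8.77 CPM at P5, and without P5 replicate 1 its call was lost (FDR 0.202) and 2 mitosis genes were called. *TOP2A*, the topoisomerase of dividing cells (-0.64, FDR 0.0545), did not pass in the 20-library fit and passed without P5 replicates 2 or 4 or P15 replicates 4 or 5 (FDR 0.0282 to 0.0435). The G1 inhibitor *CDKN1B* (-0.58, FDR 0.0542) passed without P5 replicate 1 or P15 replicates 1 or 4 (FDR 0.0317 to 0.0366), and with all libraries by DESeq2 (FDR 0.0491) and limma-voom (FDR 0.0397).

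Astrocyte genes rose broadly: 17 of 25 were called higher and none lower, with a median log2 fold change of 1.68 against -0.01 for all genes tested. *AQP4*, the water channel of astrocyte endfeet, measured 7.20, 5.52, 12.9, 6.54 and 2.72 CPM at P5 and 80.9, 78.1, 104, 144 and 89.2 CPM at P15, without overlap (log2 fold change 3.80, SE 0.35, FDR 2.11e-09). *GFAP*, the astrocyte intermediate filament, was at 1.08, 3.79, 12.9, 0.363 and 0 CPM at P5 and 179, 164, 148, 100.3 and 128 CPM at P15 (5.18, SE 0.55, FDR 3.56e-08). Rises of more than 2 on the log2 scale were also seen for the lipid carrier *APOE* (3.35, FDR 6.04e-09) and for *SPARCL1*, a secreted astrocyte protein that promotes synapse formation in rodents (1030.3 ± 204 to 5343 ± 1121 CPM, 2.37, FDR 1.29e-10). The glycolytic enzyme *ALDOC* (1.82) and the glutamate transporter *SLC1A2* (1.15) rose with FDR of 0.00723 or less. The call of *FGFR3* (2.76, FDR 0.0321), at a few CPM, was lost without P5 replicates 1, 3 or 4 or P15 replicates 1, 4 or 5 (FDR 0.0513 to 0.0747).

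The oligodendrocyte lineage showed the highest shares of called genes. Of 17 precursor genes tested 15 rose (median 2.27) and of 13 myelinating oligodendrocyte genes 12 rose (median 2.85), and none of either fell. The myelinating list held 18 genes with a symbol, and the rest had too few reads to test. Its members *MOBP* and *MAG* were at 0 CPM in every P5 library, so a rise was the only change open to them. With any 1 library left out, the counts were 14 or 15 and 11 to 13. *PDGFRA*, the growth factor receptor that defines precursors, measured 166, 237, 342, 188 and 167 CPM at P5 and 718, 859, 841, 568 and 539 CPM at P15 (1.68, SE 0.20, FDR 5.02e-07). All 5 P15 values of *PDGFRA* were above those at P5. *ENPP6* (3.08, FDR 5.48e-07) and *BCAS1* (3.33, FDR 7.36e-07), markers of newly forming oligodendrocytes, rose, as did the lineage factors *SOX10* (2.33, FDR 0.015) and *SOX8* (1.04, FDR 0.00206). *PCDH15*, a protocadherin of precursors, and *CSPG5*, a membrane proteoglycan, rose by 2.58 (FDR 9.86e-05) and 2.24 (FDR 2.69e-09).

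*MBP*, the myelin basic protein gene, measured 8.28, 25.9, 52.8, 31.97 and 30.5 CPM at P5 and 436, 562, 1567, 232 and 163 CPM at P15. The groups did not overlap, but the P15 libraries differed widely among themselves, replicate 3 being the highest (log2 fold change 4.29, SE 0.61, FDR 7.47e-06; 3.54 without P15 replicate 3). The same library had the highest summed myelin level, 4381 CPM against 1253 to 2062 in the other P15 libraries and 320 to 377 at P5. The tight junction gene *CLDN11* (3.07), the galactolipid enzyme *UGT8* (2.85) and the lysophospholipase *ENPP2* (2.04) rose with FDR of 6.13e-06 or less. *MOBP*, a late myelin gene, had no read in any P5 library and 311 reads at P15, which is at least 107.9-fold higher against a floor of 3 counts over the P5 group (FDR 0.000509).

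Microglia genes also rose together, with 13 of 20 called higher and none lower (median 2.15). *P2RY12*, the purine receptor of resident microglia, measured 29.9, 23.1, 16.02, 38.5 and 47.5 CPM at P5 and 143, 69.8, 92.3, 68.0 and 73.7 CPM at P15, without overlap (1.53, SE 0.33, FDR 0.00165). The adaptor *TYROBP* (2.18), the cathepsin *CTSS* (2.18), the complement component *C1QC* (2.27) and the lysosomal membrane gene *LAPTM5* (2.38) rose with FDR of 0.00521 or less. *C3*, the central complement component, rose from 61.1 ± 25.6 to 403 ± 92.4 CPM (2.72, FDR 3.77e-09). Of 23 lysosome genes 5 rose and none fell (21.7% called, against 14.6% of all genes tested), among them the peptidase *TPP1* (0.97, FDR 0.00402). That lysosome count fell to 2 without P5 replicates 3 or 4 or P15 replicates 1 or 3, and to 3 without P5 replicate 5.

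Part of the genes of blood vessels and their factors rose, and most did not pass the test. Of 19 endothelial genes 8 rose and none fell (median 1.01), with the VEGF receptors *KDR* (0.94) and *FLT1* (1.27) and the blood-brain barrier transporters *SLC2A1* (0.74) and *SLCO1C1* (2.09) among them (FDR of 0.0107 or less). *ANGPT1*, the angiopoietin that activates the endothelial receptor TIE2, measured 28.8, 30.7, 31.1, 38.1 and 39.6 CPM at P5 and 281, 246, 282, 387 and 255 CPM at P15. The lowest P15 library was 6.22-fold above the highest P5 library, and P15 replicate 4 was the highest of all (3.11, SE 0.22, FDR 1.25e-11; 2.98 without replicate 4). *ANGPT2*, its context-dependent antagonist, rose by less (1.46, FDR 0.000426). In the list of PDGF, VEGF, angiopoietin and HGF factors, 6 of 19 rose and none fell (median 1.09). Mural cell genes gave 1 call among 9 tested (11.1%, against 14.6% of all genes tested), the potassium channel subunit *ABCC9* (0.98, FDR 0.0414). That call was lost without P5 replicates 1, 2, 3 or 5 or P15 replicates 2, 3 or 4 (FDR 0.0533 to 0.128).

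Of 10 genes of meningeal and vascular fibroblasts, 4 rose (median 1.40). These were *POSTN* (3.40), *OGN* (2.90), *ECM2* and *COL1A1*, all genes of the extracellular matrix. *OGN*, the small leucine-rich proteoglycan osteoglycin, measured 25.9, 43.5, 29.9, 40.7 and 19.7 CPM at P5 and 285, 174, 277, 248 and 205 CPM at P15, again without overlap (SE 0.24, FDR 3.22e-10). *ECM2* rose by 2.33 (FDR 0.000145), and the call of *COL1A1*, a fibrillar collagen gene (1.75, FDR 0.0161), was lost without P15 replicate 2 (FDR 0.0593). The sum of this list was 138 to 190 CPM at P5 and 523 to 818 at P15.

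Interneuron genes were called in both directions. Of 20 tested, 2 rose and 4 fell (30% called, against 14.6% of all genes tested, median 0.11). The neuropeptide gene *SST* (somatostatin) measured 81.0, 153, 164, 130.4 and 176 CPM at P5 and 1009, 780.1, 688, 873 and 611 CPM at P15, and the lowest P15 library was 3.48-fold above the highest P5 library (2.49, SE 0.23, FDR 2.97e-09). The homeobox genes *DLX2* (-1.34, FDR 0.00278) and *DLX5* (-1.41, FDR 0.00521), which specify interneurons in the ventral telencephalon, fell. *LHX6*, a factor of migrating interneurons of the medial eminence, fell by 0.72 on the log2 scale (FDR 0.0252), and 2 genes of the list were called lower without P5 replicate 5 or P15 replicates 2 or 3. *LHX6* was lost without P5 replicates 4 or 5 or P15 replicates 2 or 3 (FDR 0.0544 to 0.0709). The GABA synthesis enzyme *GAD2* was called higher (0.76, FDR 0.0374) with its highest value in P15 replicate 4, and the call was lost without that library (FDR 0.18) and without P5 replicates 1, 3 or 4 (FDR 0.0517 to 0.114). *ERBB4*, the neuregulin receptor of migrating interneurons, was at 480.0 ± 74.97 and 548 ± 93.9 CPM (FDR 0.51).

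Guidance genes changed member by member, and members of the same family moved in opposite directions. *SEMA3C*, a secreted semaphorin that guides axons and migrating neurons, had the lowest p of all genes, with 739.8, 624, 667, 1084 and 764 CPM at P5 and 66.4, 40.2, 49.97, 57.2 and 76.7 CPM at P15 (-3.74, SE 0.22, FDR 4.86e-13). *SEMA3A*, another member of this class, fell as well (-1.96, FDR 0.000788). *SEMA3E*, whose receptor in the mouse is plexin D1, measured 5.76, 23.8, 9.56, 4.36 and 4.53 CPM at P5 and 88.4, 119.7, 148, 124 and 91.9 CPM at P15, the reverse direction (3.57, SE 0.39, FDR 6.7e-08). Among 13 transmembrane semaphorins 3 were called higher and none lower (23.1% called, against 14.6% of all genes tested). They were *SEMA5A* (2.84), *SEMA6A* (1.79) and *SEMA5B* (1.53), with FDR of 0.000648 or less. Of the 13, 7 had a negative log2 fold change (median -0.05, lowest -3.56). Without P5 replicates 1 or 5 or P15 replicate 5, 1 of them was called lower. On the receptor side *PLXNA4* (-1.52) and *PLXNA2* (-1.25) fell (FDR 0.00139 and 0.0018) and *NRP2* rose (2.69, FDR 2.75e-05). *NRP1*, the neuropilin that binds class 3 semaphorins and VEGF, was called lower (-0.97, FDR 0.0282), a call lost without P5 replicates 3 or 5 or P15 replicates 3, 4 or 5 (FDR 0.0525 to 0.0792).

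Of 14 Eph receptors and ephrins 5 fell and 1 rose (median -0.88), and of 13 slits, robos, netrins and UNC5 receptors 4 fell and 2 rose (median -0.98). *ROBO1*, a Slit receptor, measured 553, 715, 777, 927 and 848 CPM at P5 and 162, 215, 181, 263 and 197 CPM at P15, without overlap (-1.91, SE 0.18, FDR 4.5e-09). *ROBO2* (-1.27, FDR 9.29e-07) and the ligand *SLIT2* (-2.01, FDR 9.65e-05) fell with it, while the netrin receptors *DCC* (1.88, FDR 0.00163) and *NEO1* (0.63, FDR 0.00932) rose. *DCC* was highest in P15 replicate 4 and stayed called without it (1.43, FDR 0.011). *EPHA3* fell from 985 ± 231 to 187 ± 43.1 CPM (-2.40, FDR 2.08e-09), *EPHA5* by 1.61 and the ligand *EFNB1* by 1.45 on the log2 scale (FDR 1.96e-05 and 0.00639). The fall of *EPHB2* (-2.02, FDR 0.0068) was not called without P5 replicate 2 (FDR 0.0824). The only Eph gene called higher, *EPHB3* (1.25, FDR 0.0406), lost its call without P15 replicate 4 (FDR 0.171) and without 5 others (P5 replicates 1, 3, 4 or 5 or P15 replicate 2, FDR 0.0589 to 0.0936).

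Cytoskeletal genes of neurons moved in both directions, 8 of 30 falling and 7 rising (median -0.23). *STMN1* (stathmin), a microtubule-destabilising protein of growing neurites, measured 1755, 2603, 2447, 2618 and 2657 CPM at P5 and 806, 591, 724, 623 and 810.4 CPM at P15, without overlap (-1.76, SE 0.17, FDR 8.25e-09). The neuronal tubulin *TUBB3* (-1.62, FDR 1.03e-05) and the growth cone collapsin response mediator *DPYSL5* (-1.05, FDR 0.00451) also fell. *MAP1A*, the microtubule-associated protein of mature neurites, rose from 80.8 ± 29.5 to 327 ± 119 CPM (2.01, FDR 1.61e-05), as did the axonal transport motors *KIF5C* (1.00, FDR 3.04e-05) and *KIF5A* (1.22, FDR 0.000218). *MAP1B*, a related protein of growing axons, was at 2757 ± 781 and 3231 ± 305 CPM (FDR 0.494). The number called lower was 4 or 5 without P5 replicates 2 or 3 or P15 replicates 2 or 5.

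Adhesion genes showed the same division. Of 15 L1 and contactin family genes 6 rose and 3 fell. *L1CAM*, an axonal adhesion molecule (-1.54, FDR 8.25e-05), and *CNTN4* (-1.08, FDR 0.00171) fell, and *CNTN1* (299.6 ± 40.9 to 818 ± 59.0 CPM, 1.45, FDR 2.26e-08) and *NFASC*, a component of the axon initial segment and of nodes (2.38, FDR 8.24e-05), rose. Of 25 cadherins and protocadherins 8 rose and 5 fell, and 5 rose without P5 replicate 2 or P15 replicate 3. *CDHR1* (-2.34, FDR 6.56e-05) and the atypical cadherin *CELSR3*, which is needed for axon tracts in the mouse forebrain (-1.72, FDR 0.0034), fell. *PCDH10* (1.63, FDR 0.00094) and *CDH9* (2.07, FDR 0.00252) rose.

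Genes of the extracellular matrix and its receptors that were called in the following lists were all higher at P15. Of 18 collagens 11 rose, of 7 laminins 5, of 13 integrins and dystroglycan 8, of 22 proteoglycans and hyaluronan matrix genes 11, and none of these 4 lists held a gene called lower. *CD44*, the hyaluronan receptor, measured 10.1, 7.93, 8.61, 4.00 and 5.74 CPM at P5 and 142, 138, 164, 106 and 102 CPM at P15, its lowest P15 value being 10.2-fold above its highest P5 value (4.16, SE 0.35, FDR 6.36e-10). *VCAN*, the hyaluronan-binding proteoglycan versican, rose from 869 ± 139 to 2699 ± 241 CPM (1.64, FDR 1.72e-09) and its link protein *HAPLN1* by 2.36 (FDR 1.42e-07). The fibrillar collagen *COL11A1* (1.10), the basement membrane genes *COL4A1* (1.39), *LAMC1* (1.40) and *LAMB2* (1.61), and the laminin receptors *DAG1* (1.33) and *ITGA7* (2.64) rose with FDR of 0.0071 or less. The number of collagens called higher was 6 without P15 replicate 2 and 7 without P5 replicate 4. Without P15 replicate 5, 1 collagen was called lower. In the proteoglycan and hyaluronan matrix list 1 gene was called lower without P5 replicate 2 or P15 replicate 1.

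Among matrix proteases and their inhibitors 9 of 19 rose and 1, *ADAMTS18*, fell. The proteases *ADAMTS9* (3.86), *ADAMTS8* (4.74) and *HTRA1* (1.93) and the metalloprotease inhibitor *TIMP3* (1.75) all had FDR of 9.28e-06 or less. The fibroblast and endothelial marker sums rose over the same interval (138 to 190 then 523 to 818 CPM, and 262 to 660 then 748 to 1152 CPM), as did those of astrocytes and oligodendrocyte precursors given above. Their part in the matrix changes was not tested.

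Temporal regulators and transcription factors of progenitors changed in both directions. *HMGA2*, a chromatin protein of early stem cells and a target of the let-7 microRNAs in the mouse, measured 72.0, 22.8, 12.2, 16.7 and 24.5 CPM at P5 and 2.60, 3.32, 1.91, 3.18 and 5.07 CPM at P15, with P5 replicate 1 the highest of its group (-3.19, SE 0.52, FDR 5.75e-05). *NFIA*, a gliogenic nuclear factor, rose (0.76, FDR 0.00501), whereas its relative *NFIB* was at 617 ± 137 and 477 ± 56.2 CPM (FDR 0.232). Of 7 SOX factors 3 rose and 1 fell, the faller being *SOX4* of immature neurons (-1.11, FDR 0.0017) and *SOX6* of precursors being among the risers (1.28, FDR 2.83e-05). Of 34 chromatin modifiers and remodellers 6 fell and 1 rose (3 fell without P5 replicate 2 or P15 replicate 2). The share called was 20.6%, against 14.6% of all genes tested. *HDAC2*, a histone deacetylase (-0.77, FDR 0.00158), and *CBX1*, a heterochromatin protein (-1.26, FDR 0.000379), fell, and the remodeller *CHD7* rose (1.11, FDR 0.000653). *EZH2*, the histone H3 lysine methyltransferase, was called lower (-0.79, FDR 0.0217), a call lost without P5 replicate 2 or P15 replicates 2 or 4 (FDR 0.0505 to 0.062).

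Of 27 neural RNA-binding protein genes 10 fell and 5 rose. *ELAVL4* (HuD), which stabilises neuronal transcripts, fell from 631 ± 72.4 to 179 ± 31.5 CPM (-1.82, FDR 5.17e-09) and *CELF5* by 1.27 on the log2 scale (FDR 0.00105). *QKI*, a splicing regulator of glia and myelin, rose from 379.7 ± 36.1 to 838 ± 114 CPM (1.14, FDR 6.03e-06), and *MBNL2*, a splicing factor that favours adult isoforms, rose by 1.73 (FDR 0.000873; 1.25 without P15 replicate 4, its highest library). The number called lower was 5 without P15 replicate 3 and 6 without P15 replicate 5.

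Ribosomal protein genes that were called were all lower at P15, 11 of 28 tested (median -0.58). *RPS27A* fell from 3155 ± 113 to 1849 ± 546 CPM (-0.77, FDR 0.0085) and *RPS16* from 1772 ± 294 to 884 ± 351 CPM (-1.0, FDR 0.011). This count depended on the libraries, being 6 without P5 replicate 2, 4 without P15 replicate 2 and 5 without P15 replicate 3, and the direction of the median held in each. Reads of ribosomal protein genes can be shared with processed pseudogenes, so single members are uncertain. Of 24 oxidative phosphorylation genes 1 fell (4.17% called, against 14.6% of all genes tested), the ATP synthase subunit *ATP5PF* (-0.80, FDR 0.0116). That call was lost without P15 replicate 2 (FDR 0.0506), and 2 or 3 genes fell without P5 replicate 4 or P15 replicates 1 or 4. Of 18 genes of cholesterol synthesis and uptake 3 rose (16.7%, near the share of all genes). The synthase *HMGCS1* (1.35, FDR 1.82e-05) and the lipoprotein receptor *LRP1* (1.40, FDR 5.88e-05) were among them.

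Receptor and channel genes were called in both directions, most members not passing the test. Of 22 glutamate receptors 6 rose, including the AMPA receptor subunit *GRIA4* (53.0 ± 14.4 to 229.7 ± 33.2 CPM, 2.11, FDR 2.87e-08), the kainate subunit *GRIK1* (1.90, FDR 0.00106) and the metabotropic receptor *GRM3* of glia (2.31, FDR 0.000641). *GRIN2A*, an NMDA receptor subunit at under 10 CPM in every library, was called lower (FDR 0.0343) and lost the call without any of 6 libraries (P5 replicates 2, 3 or 4 or P15 replicates 1, 3 or 5, FDR 0.0521 to 0.0855). The metabotropic GABA receptor subunit *GABBR2* rose (1.75, FDR 0.000868). Of 22 potassium channel genes 4 fell and 3 rose. The background channel *KCNK2* fell from 259.7 ± 62.0 to 46.4 ± 6.45 CPM (-2.49, FDR 3.56e-08) and the M-current subunit *KCNQ3* fell as well (-1.89, FDR 0.000949). Its relative *KCNQ5* (2.42, FDR 0.000776) and the calcium-activated channel *KCNMA1* (1.51, FDR 0.000195) rose. Of 22 sodium and calcium channel genes 3 rose and 1 fell (18.2% called, against 14.6% of all genes). The embryonic sodium channel subunit *SCN3A* fell (-0.77, FDR 0.00729) and *SCN2A* rose (0.99, FDR 0.00053). Of the 24 synaptic vesicle genes 3 rose and 1 fell (16.7%), *RIMS2* of the active zone rising (1.19, FDR 1.52e-05) and the fusion protein *SNAP25* falling (-0.75, FDR 0.00254).

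In signalling pathways most members did not pass the test. Of all genes tested 14.6% were called, 8.19% higher and 6.46% lower. Of 18 Notch genes 2 rose (11.1%, near that share), the target *HEY1* (1.83, FDR 0.0008) and the co-activator *MAML2* (1.66, FDR 1e-05). Of 24 Wnt genes 5 rose and 1 fell (25%). *TCF7L2*, a nuclear effector that oligodendrocyte precursors also use as they differentiate, rose (2.07, FDR 1.82e-06) and the co-receptor *LRP6* fell (-0.89, FDR 0.00762). *APC*, which restrains Wnt signalling by promoting breakdown of beta-catenin, measured 3864, 8367, 6499, 6163 and 8702 CPM at P5 and 37329, 32029, 35792, 38297 and 34145 CPM at P15, without overlap (2.40, SE 0.17, FDR 1.25e-11). It took 3.39% to 3.76% of all assigned reads in the P15 libraries, against 0.386% to 0.849% at P5. No strand setting is named for the counts, and whether all of these reads come from the *APC* messenger was not tested. Of 10 hedgehog genes 3 rose (30%), the receptor *PTCH1* (0.97, FDR 0.00439) among them. The growth factor *FGF1* (2.19, FDR 7.97e-05) rose, as did the bone morphogenetic proteins *BMP4* (2.09, FDR 0.00372) and *BMP2* (2.17, FDR 0.00402) and their effector *SMAD1* (1.04, FDR 0.00152). *THRB*, a thyroid hormone receptor, rose by 0.86 (FDR 0.00392).

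For 15 of the lists without a call in 1 direction, the other tests were read as well. These lists were taken for having no edgeR call in that direction, so the 0 of edgeR follows from the choice. The other tests used the same counts and are not independent of it. Further lists without a call in 1 direction were not read in this way. In 12 lists (astrocytes, oligodendrocyte precursors, myelinating oligodendrocytes, microglia, endothelial cells, lysosome, vascular and growth factors, transmembrane semaphorins and the 4 matrix lists), edgeR called 0 of 198 genes lower and 5 had an unadjusted p under 0.05 in that direction. DESeq2 called 1 of them lower, limma-voom 2 and the newer quasi-likelihood test of edgeR 2. In the intermediate progenitor, DNA replication and mitosis lists, edgeR called 0 of 64 genes higher, with 0 at an unadjusted p under 0.05, and the other tests called 0, 0 and 1.

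**Figure D4:**
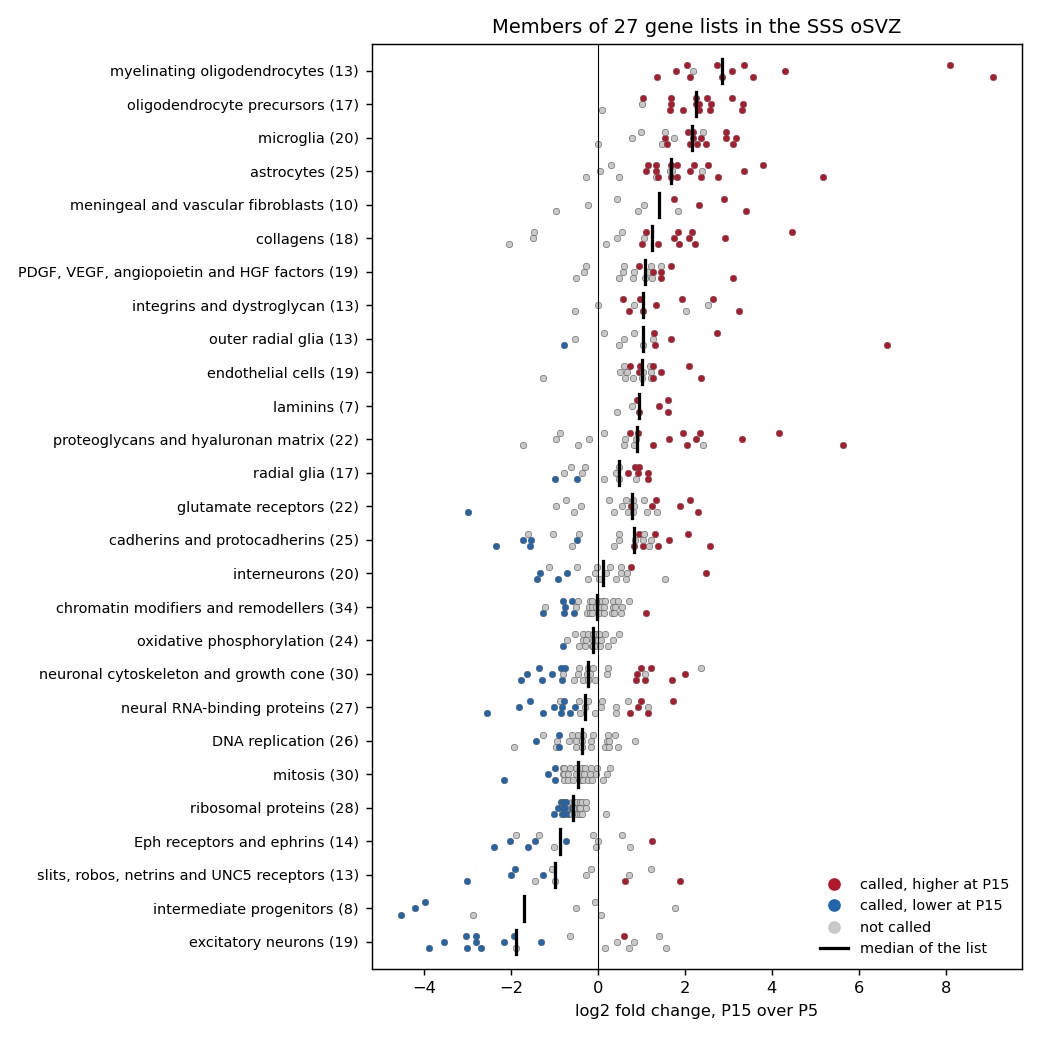
Each point is the log2 fold change (P15 over P5) of 1 tested member of a gene list, with the number of members in brackets and the median as a black bar. Red marks members called higher, blue members called lower and grey members not called. The glial, vascular and matrix lists lie to the right of 0 (myelinating oligodendrocytes 2.85), and the excitatory neuron list lies furthest to the left (-1.88).

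Several genes of the 10 with the lowest p in each direction belong to none of these groups. *ANK2* (ankyrin B), a membrane scaffold of axons, rose from 625 ± 53.4 to 2486 ± 322 CPM (1.99, FDR 8.39e-11). *DPY19L1*, which is needed for radial migration of neurons in the mouse, fell from 713 ± 113 to 182 ± 29.5 CPM (-1.97, FDR 6.81e-10). *CD24*, a surface glycoprotein of immature neurons, fell from 2356 ± 357 to 571 ± 94.97 CPM (-2.04, FDR 1.61e-09), and *FBXW7*, the substrate-binding subunit of a ubiquitin ligase, from 873 ± 352 to 139.7 ± 42.1 CPM (-2.65, FDR 8.16e-09). *DDAH2* (-2.42, FDR 1.42e-09) and *TMEM26* (-1.89, FDR 7.86e-09) also fell without overlap. The gene with the highest level at both ages, *SEH1L*, which encodes a nuclear pore and GATOR2 complex subunit, was not called. It measured 69184, 81672, 57902, 60962 and 55472 CPM at P5 and 55800.1, 33232, 42954, 100677 and 47268 CPM at P15, with P15 replicate 4 the highest library (FDR 0.618). As for *APC*, the origin of these reads was not tested.

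Of a joined set of 14 candidate genes, 2 were called between the ages in the SSS, *LIFR* and *STAT3* above. That share is near the 14.6% of all genes tested. The set joins the genes that the paper names, in differing lists, as candidates or targets for RT-qPCR. The paper lists no RT-qPCR assay for *LIFR*, *STAT3*, *FGFR2*, *CDK6* or *LGALS3BP*. By RT-qPCR it reports significant rises with age in the SSS for *SOX9*, *SEMA3D* and *FOXM1*, none of which was called here with all libraries. *SOX9*, a factor of radial glia and astrocytes, was at 11.2, 11.04, 28.2, 5.09 and 13.3 CPM at P5 and 43.3, 36.6, 62.5, 19.5 and 12.2 CPM at P15, so the groups overlapped (1.33, SE 0.49, FDR 0.069). It was called without P5 replicate 3 (FDR 0.0214) and without P15 replicates 4 or 5 (FDR 0.0441 and 0.034). *FOXC1* (1.85, FDR 0.0654) and *TUBA4A* (2.37, FDR 0.0834), both at under 20 CPM, were called with 1 library left out, *FOXC1* without P5 replicate 2 (FDR 0.0389) and *TUBA4A* without P5 replicate 5 or P15 replicate 4 (FDR 0.012 and 0.0396). *FGFR2* was at 151 ± 65.0 and 209.7 ± 53.7 CPM (FDR 0.162) and was called without P5 replicate 1 (FDR 0.0109) or P15 replicate 4 (FDR 0.047). The log2 fold changes of *SEMA3D* (1.07), *PRUNE1* (1.29), *LGALS3BP* (1.27), *CDK6* (0.42), *FOXM1* (0.21), *PI4KB* (-0.38), *GLI1* (-0.43) and *AJAP1* (-1.04) had FDR from 0.34 to 0.85, with SE from 0.36 to 1.10.

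Whether the change with age below the sulcus differed from that below the gyrus was tested gene by gene, with the animal as a block. No gene was called (0%) by edgeR, with 488 at an unadjusted p under 0.05, and none by limma-voom, with 576. Chance gives 633 at that threshold over the genes tested, so the genes named next are a ranking only. The gene with the lowest p was *SST*, which rose by 2.49 in the SSS and 1.37 in the CG on the log2 scale, a difference of 1.17 (SE 0.22, FDR 0.29). The next were *CDK18*, a cyclin-dependent kinase (0.12 in the SSS and 5.90 in the CG), *FBLN7*, a matrix fibulin (1.44 and -0.01), *HCFC1*, a transcriptional co-regulator (0.85 and -0.44), and *ADAMTS8* (4.74 and 2.60). The median log2 fold changes of the lists stood side by side at 1.68 in the SSS and 1.08 in the CG for astrocytes, 2.27 and 2.15 for oligodendrocyte precursors, 2.15 and 2.00 for microglia, and -1.88 and -1.66 for excitatory neurons. Both sets of values come from the same animals, so they are not independent measurements.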

How the data were processed

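The deposited table held raw read counts per gene, made by the authors from laser-captured, SPIA-amplified RNA with, per the labels, Trimmomatic 0.38, FastQC 0.11.9, STAR 2.7.9a and featureCounts. Alignment was to the ferret assembly MusPutFur1.0, multi-mapping reads stayed unassigned, and no strand setting is named in the sources used here, so a gene and an antisense partner cannot be separated. Amplification without molecular identifiers means that counts are not independent molecules. The symbol column of the table followed the sorted order of the gene identifiers and not their line order, so each of 32057 identifiers was given the symbol at its sorted rank, which gave 17211 a symbol. After this step 27 ribosomal protein genes had a median level of 851 counts per 1000000 assigned reads (CPM), against 1.39 with symbols read line by line.

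All 20 libraries, in 4 groups of 5 set by the labels, entered 1 fit in edgeR 4.0.16 (R 4.3.3) with TMM scaling, filterByExpr (minimum count 10, minimum total 15, leaving 12669 genes) and the older quasi-likelihood F-test. FDR is the Benjamini-Hochberg adjusted p over these genes, and genes under 0.05 were called higher or lower. Fold changes carried a prior count of 0.125. CPM values used TMM library sizes. Single values per library were compared by an exact two-sided permutation test. The labels do not give litter or culture relations between animals, so p-values measure the spread between the libraries of these animals. In the age test the SSS and CG libraries of an animal were treated as independent, which they are not. The 10 SSS libraries alone gave 1330 calls.

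The 55 gene lists (1223 places, 932 tested) were described by counts and medians without a set test. The genes named were, in each list, up to 4 called members in each direction with the lowest p and the member with the highest level, with the 10 genes of lowest p and the 8 of largest non-overlapping change in each direction, the RT-qPCR candidates, the 5 lowest interaction p, the highest levels, and the 5 that moved most without P15 replicate 4. Not all of them are printed, and a few genes are not reported here. The comparison, the lists and the genes were chosen with earlier results of these data known. Alternatives were RLE scaling, library size only, DESeq2 1.42.0, limma-voom (limma 3.58.1), the newer quasi-likelihood test of edgeR, no filter, a stricter filter, the 10 SSS libraries alone, the replicate number as a block, and each SSS library left out. Limma-voom for the difference between the regions was added after the data were seen. The scripts were tested on simulated counts.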

Additional observations from a re-analysis of the deposited data

Results flagged for a closer look

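In each group of 5 SSS libraries, a value was picked out where its gap to the nearest other library, relative to the range of the group, exceeded the critical value of Dixon's test. This held for 43 of 434 groups of values, against 21.7 that chance gives at 1 in 20, and the genes share libraries and are not independent. P15 replicate 4 held 11 of the 43, P5 replicate 1 held 8, P15 replicate 5 held 6 and P15 replicate 3 held 5. The genes screened included some named because they moved most without P15 replicate 4, among them *PEAR1*, *MATN3*, *GPATCH3* and *RBPMS2*. Part of the count of that library, and of the excess over chance, therefore follows from how the genes were chosen. No cause was tested for any of them.

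P15 replicate 4 had 1371 of the tested genes at 0, against 49 to 366 in the other P15 libraries. It was high for *MATN3* (172 CPM, others 3.04 to 12.6), *RBPMS2* (128 CPM, others 0 to 5.20), *GPATCH3* (96.6 CPM, others 0 to 7.98) and *PEAR1* (109.8 CPM, others 1.33 to 15.9), which set the calls of these genes. It was also the highest for *MBNL2* (127 CPM), *GAD2* (265 CPM), *DCC* (102 CPM), *KCNMA1* (161 CPM) and *ANGPT1* (387 CPM), and the lowest for *TNC* (149 CPM, others 211 to 235).

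P15 replicate 3 was the highest library for the summed myelin markers (4381 CPM), for *MBP* (1567 CPM, others 163 to 562) and for *UGT8* (349 CPM, others 134 to 178), and the lowest for *TMEM26* (57.1 CPM) and *AJAP1* (0 CPM). P15 replicate 5 was the highest for the progenitor and cell cycle genes *EOMES* (9.80 CPM, others 1.36 to 2.73), *NEUROG2* (2.03 CPM), *TTK* (57.1 CPM, others 24.0 to 31.8) and *RFC3* (37.8 CPM, others 12.6 to 16.8). The same library was the lowest for *DAG1* (178 CPM, others 314 to 358) and *ECM2* (43.6 CPM). P15 replicate 2 was high for *ADAMTS9* (115 CPM) and *NXPH4* (4.99 CPM), and P15 replicate 1 for *SLC1A1* (103 CPM, others 66.9 to 77.3).

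At P5, replicate 1 was the lowest for the summed excitatory neuron markers (1812 CPM, others 2698 to 2889), *STMN1* (1755 CPM) and *KIF5A* (109 CPM). It was the highest for *AURKB* (82.0 CPM, others 5.09 to 21.7), *HMGA2* (72.0 CPM, others 12.2 to 24.5), *INSM1* (13.3 CPM, others 0.907 to 3.11), *ENPP2* (104 CPM) and *PI4KB* (47.1 CPM). Replicate 2 was high for *EPHB2* (97.3 CPM) and *SEMA3E* (23.8 CPM), and replicate 3 for *GABBR2* (47.8 CPM) and *GLI1* (6.22 CPM). Replicate 4 was high for *SLC17A6* (149 CPM), *SCN3A* (327 CPM) and *SEMA3D* (18.2 CPM) and low for *STAT3* (12.7 CPM, others 36.7 to 45.9). Replicate 5 was high for *RFC3* (70.4 CPM) and *GPATCH3* (5.14 CPM).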

How the results depend on the processing

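The 1856 called genes became 1330 to 2341 under 9 alternatives (RLE scaling 1814, library size only 1749, DESeq2 2298, limma-voom 1928, newer quasi-likelihood test 2341, no filter 2087 of 22664 genes, stricter filter 1869 of 11125, only the 10 SSS libraries 1330, replicate block 2008) and 1382 to 1840 with 1 library left out, lowest without P15 replicate 3. The 819 genes called lower became 531 with only the 10 SSS libraries and 531 without P15 replicate 3, the lowest of the values with 1 library left out. In all 10 fits with 1 library left out 1047 of the called genes kept their call (641 higher and 406 lower), and 996 kept it in all 19 alternatives. No called gene changed sign with a library left out. Scaling moved the median of all genes by at most 0.0721 on the log2 scale.

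Without P15 replicate 4 the difference in genes with a read (P15 minus P5) was 1431 (exact permutation p = 0.0397), and at equal depth 1445 (exact permutation p = 0.0317), against 785.8 and 842 with all libraries. The difference between the regions stayed at 0 called genes in its 4 alternatives. At an unadjusted p under 0.05 there were 366 (animal left out), 599 (without P15 replicate 4), 482 (RLE scaling) and 576 (limma-voom), against 633 given by chance.

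The replicate block gave 2008 calls. Same-numbered SSS libraries of the 2 ages are different animals, and their deviations correlated at -0.0324 to 0.111, against -0.109 to 0.119 for different numbers, so the numbers did not pair them. Under the block *GAD2* (FDR 0.0563), *GPATCH3* (FDR 0.146) and *RBPMS2* (FDR 0.269) lost their calls, and *TOP2A* (FDR 0.0295), *SOX9* (FDR 0.0169), *CDKN1B* (FDR 0.0477) and *HCFC1* (FDR 0.0215) were called.

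Over 195 named genes and 19 alternatives, 3565 values kept direction and call, 85 lost the call, 40 gained it and 7 reversed, none of the reversed being called. *GLI1* ranged from -1.59 to 0.96 with 1 library left out (0.96 without P5 replicate 3), *PI4KB* from -0.58 to 0.078 (0.078 without P5 replicate 1), and *CDK18* ranged from -0.17 to 0.70 with 1 library left out (-0.11, -0.17 and -0.02 without P5 replicates 3, 4 and 5, -0.17 and -0.14 without P15 replicates 2 and 3). The median of the 6 class 3 semaphorins tested was -0.76. In the lowest of 4 equal bins of genes by level the smallest called change was 1.91 on the log2 scale.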

Other observations

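Amino acid transporters, which carry glutamate and neutral amino acids across membranes, moved in both directions. Of 18 tested, 6 rose and 3 fell (median 0.49). *SLC1A1*, the glutamate transporter EAAC1, measured 5.76, 30.7, 31.6, 10.2 and 23.0 CPM at P5 and 103, 76.4, 77.3, 73.0 and 66.9 CPM at P15, without overlap (log2 fold change 1.96, SE 0.35, edgeR FDR 0.000194). The neutral amino acid transporter *SLC38A2* fell from 518 ± 128 to 303 ± 42.6 CPM (mean ± SD, n = 5 libraries at each age; -0.78, FDR 0.00266), and the other 2 that fell were the vesicular transporters *SLC17A6* and *SLC17A7*.

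In the list of the LIF receptor and STAT3 pathway 4 of 14 genes rose (median 0.73). They were *LIFR*, *IL6ST*, *STAT3* and the kinase *JAK1* that links the receptors to STAT3 (74.6 ± 19.2 to 139 ± 41.7 CPM, 0.90, FDR 0.00508). The lowest P15 value of *JAK1* was only 1.03-fold above its highest P5 value. All 4 were called with any 1 library left out.

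For the remaining lists the share called is given beside the 14.6% of all genes tested. Of 14 glycolysis genes 2 rose (14.3%) and of 19 FGF pathway genes 3 rose (15.8%), both near that share. Of 12 thyroid hormone genes 3 rose (25%), and of 10 genes of complement and antigen presentation 2 rose (20%, median 1.75). Without 1 library, the glycolysis count was 1 to 3 and the FGF count 1 to 3. Of 25 TGF-beta and BMP genes 5 rose and 2 fell (28%), and with 1 library left out these counts were 3 to 5 and 0 to 2. Of 9 heterochronic and temporal regulators 2 rose and 2 fell (44.4%).

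Of 7 ependymal genes 2 rose (28.6% called, against 14.6% of all genes tested), and 1 was called in 6 of the fits with 1 library left out. *RARRES2*, a secreted chemoattractant precursor, was among the 2 (19.9 ± 8.20 to 50.4 ± 8.68 CPM, mean ± SD, n = 5 libraries at each age, log2 fold change 1.34, edgeR FDR 0.00925). The summed ependymal markers were 47.2 to 77.7 CPM at P5 and 64.9 to 145 CPM at P15, so the ranges overlapped. The 4 erythroid genes with a symbol, 2 of them tested, summed to 10.3 to 23.4 CPM at P5 and 4.08 to 21.3 CPM at P15.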
